A study of Mus musculus with 2 samples.

Results

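The genes described here are 10 rapidly inducible genes of the mouse: Fos, Fosb, Jun, Junb, Egr1, Ier2, Atf3 and Dusp1, which are immediate early genes, and Hspa1a and Dnajb1, which are heat shock genes. They were chosen by name, and all 10 were found among the 43346 Ensembl genes of the deposited tables. The tissue was whole kidney of newborn B6NCrl mice on postnatal day 0, profiled by total RNA-seq from 10.0 ng of RNA longer than 200 nt. Each of the 2 libraries held both kidneys of 1 pup. The labels name the same pregnant animal for both pups and give no sex, transgene or treatment. They form 1 group, so no conditions were compared and the spread between the pups is the only error (n = 2). Levels are TPM, a transcript abundance that the authors scaled by effective length and then to the same fixed total in each library.

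Immediate early genes are switched on within minutes by growth factors, calcium or stress, without new protein synthesis. MAP kinases activate factors such as SRF with its ETS partners and CREB, which already sit on these promoters, and most of the mRNAs decay quickly. Heat shock genes answer unfolded protein through the factor HSF1, and their products, the HSP70 chaperones and their J-domain partners, refold it. In kidney both groups are known to respond to ischaemia, and also to the time and handling between death and freezing, which the labels used here do not describe.

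Of the kidney markers, 10 of 10 nephron and collecting duct genes reached 1 TPM in both pups, with summed levels of 1362 TPM in pup 1 and 1354 TPM in pup 2. Leukocyte markers were also present (7 of 8 detected, sums of 195 and 193 TPM in pups 1 and 2), as were red blood cell markers (5 of 6 detected, sums of 4601 and 4472 TPM). Of 8 muscle, adrenal and liver markers 3 were detected, at sums of 25.2 and 22.0 TPM, and the aldosterone synthase Cyp11b2 was at 0. Total depth was 41584961 expected counts in pup 1 and 48823952 in pup 2.

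Of the 10 genes, 9 reached 1 TPM in both pups, against 33.9% of all 43346 genes and 61.5% of the 21474 protein-coding genes. The median of the 10 genes was 18.9 TPM in pup 1 and 21.1 TPM in pup 2, against 18.3 and 17.3 TPM for the median detected protein-coding gene. Together they held 235 TPM in pup 1 and 234 TPM in pup 2. The levels formed 3 tiers. Ier2, Jun, Dnajb1, Dusp1, Junb, Hspa1a and Egr1 lay between 16.1 and 66.9 TPM, Atf3 and Fos lay between 2.56 and 3.33 TPM, and Fosb stood alone at 0.06 TPM. In bulk tissue a lower level can come from fewer expressing cells or from less RNA per cell, and these cannot be told apart. Down to Junb each gene of the order stood above the next in both pups without overlap. Junb, Hspa1a and Egr1 overlapped one another, as did Atf3 and Fos.

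**Figure D1:**
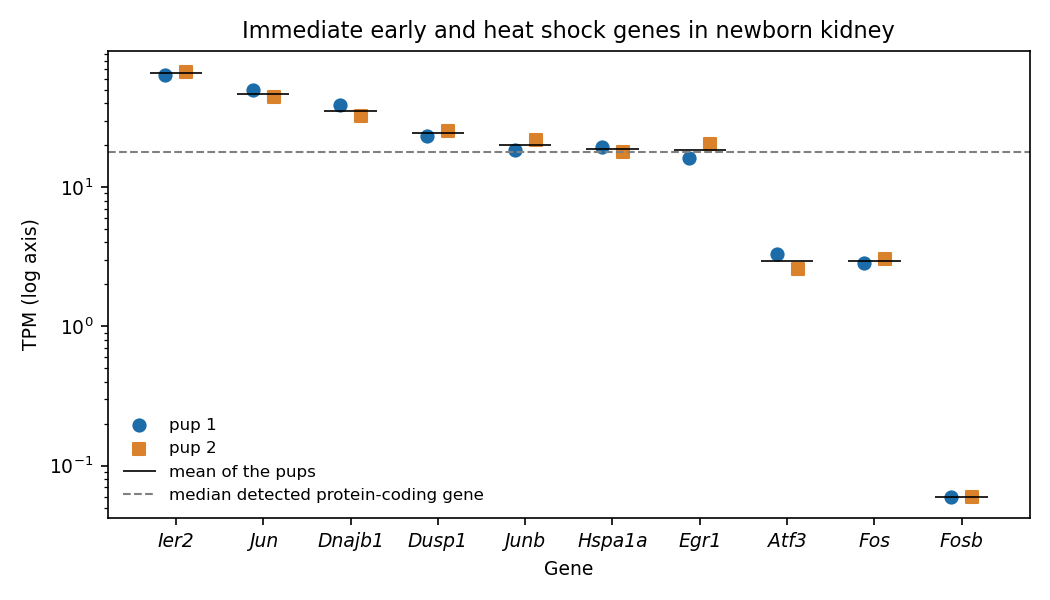
TPM of the 10 genes (y axis, log scale) in pup 1 (circles) and pup 2 (squares), ordered by mean (short lines); the dashed line is the mean over the pups of the median detected protein-coding gene, 17.8 TPM. Of the 10 genes 7 lie near or above that line, Atf3 and Fos near 3 TPM, and Fosb at 0.06 TPM in both pups.

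Among the AP-1 genes, Jun and Junb stood well above Fos, Fosb and Atf3. AP-1 is a dimer in which a Jun protein pairs with a Fos or ATF protein, and Jun proteins can also pair with each other. Jun stood at 49.6 TPM in pup 1 and 44.0 TPM in pup 2 (4542 and 4958 counts), and Junb, its close relative, at 18.4 and 21.7 TPM. Fos, the classic inducible partner, had 2.85 TPM in pup 1 and 3.03 TPM in pup 2. Those levels rest on 165 counts (95% Poisson interval 141 to 192) and 216 counts (188 to 247). Both Fos values lay far below both Jun values: Jun exceeded Fos 17.4-fold in pup 1 and 14.5-fold in pup 2.

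Fosb, whose product takes the place of Fos in AP-1, was at 0.06 TPM in each pup. It rested on 6 counts in pup 1 (95% Poisson interval 2.20 to 13.1) and 8 counts in pup 2 (3.45 to 15.8). Fos was thus 47.5-fold and 50.5-fold higher than Fosb in pups 1 and 2; the low Fosb counts leave both ratios imprecise. Atf3, a stress-induced partner of Jun, had 3.33 and 2.56 TPM in pups 1 and 2 (186 and 176 counts). Its values bracketed those of Fos, so the order of Atf3 and Fos is not resolved.

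The relatives that depend less on stimuli took a large share of each family. Jund, the Jun gene with the least dependence on stimuli, had 28.5 TPM in pup 1 and 37.3 TPM in pup 2. Of the summed TPM of the Jun family, Jun held 51.4% and 42.7%, Jund 29.5% and 36.3%, and Junb 19.1% and 21.1% in pups 1 and 2. Among Fos genes the slower Fosl2 led with 4.23 and 4.16 TPM, or 56.4% and 55.3% of the family sum, ahead of Fos with 38.0% and 40.3%. The 3 Jun genes together exceeded the 4 Fos genes 12.9-fold in pup 1 and 13.7-fold in pup 2. On log2(TPM + 1), Jun lay above Junb by 1.19 ± 0.28 (SD, n = 2) and Junb differed from Jund by -0.68 ± 0.11. Both exceed 0.44, the 95th percentile of the absolute difference between the pups over 15429 genes. Jun against Jund (0.78 in pup 1, 0.23 in pup 2) and Fos against Fosl2 (-0.44 and -0.36) did not pass that limit in both pups. Of 16 such contrasts among the 10 genes and their relatives, 14 passed it. The limit measures how far the same gene differs between the pups, and the share of other gene pairs that pass it was not computed. The count can therefore not be read as a trait of these genes.

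Signals reach inducible genes through response elements in their promoters. Promoter stretches with a searched motif, whose function was not tested, are shown for Jun, Fos, Dusp1 and Atf3. They come from RefSeq on GRCm38.p6, run 5′ to 3′ on the gene's strand, and end at the base before the RefSeq transcription start, except that of Dusp1, which ends at -50. Capitals mark GAANNTTC (the core of a heat shock element) and CCAAT in Jun, TGACG (the core of a cAMP response element, bound by CREB and ATF proteins) and TATAAA in Fos, TGACG and the full palindrome TGACGTCA in Dusp1, and TGACG in Atf3, each on either strand. The regions are chr4:95052223-95052372 (minus strand) for Jun, chr12:85473790-85473889 (plus strand) for Fos, chr17:26508522-26508672 (minus strand) for Dusp1, and chr1:191183334-191183433 (minus strand) for Atf3.
Jun: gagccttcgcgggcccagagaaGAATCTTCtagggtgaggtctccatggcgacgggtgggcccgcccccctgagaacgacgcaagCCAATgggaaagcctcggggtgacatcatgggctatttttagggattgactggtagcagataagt
Fos: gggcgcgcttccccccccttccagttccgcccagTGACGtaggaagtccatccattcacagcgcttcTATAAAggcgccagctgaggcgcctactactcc
Dusp1: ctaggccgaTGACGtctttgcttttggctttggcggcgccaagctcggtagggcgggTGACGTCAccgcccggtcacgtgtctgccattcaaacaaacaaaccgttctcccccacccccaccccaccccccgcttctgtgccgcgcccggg
Atf3: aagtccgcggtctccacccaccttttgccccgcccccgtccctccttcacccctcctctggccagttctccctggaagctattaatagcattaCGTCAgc

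Of the 10 genes, 8 had a promoter window in the RefSeq table (250 bases before to 50 after the start), with 9 windows in all since Dnajb1 has 2 starts. TGACG was found in 6 of these 8 genes (Atf3, Dnajb1, Dusp1, Fos, Fosb and Junb), against 20.8% of all 32851 windows. TGACGTCA, which contains TGACG, was found in Dusp1 alone among them, at -143 to -136 from its start, against 1.79% of all windows. GAANNTTC was found in Hspa1a and Jun (7.86% of all windows) and TATAAA in Fos and Junb (13.6%). The TATAAA of Fos lay at -33 to -28, and that of Junb at 1 to 6, not upstream of the RefSeq start. CCAAT was found in 5 of 8 (37.4%) and GGGCGG in 7 of 8 (35.7%). The CArG box bound by SRF, which 1.63% of all windows hold, had no match in any of the 9. Egr1 and Ier2 had no window, and sequence outside the windows was not searched. The lack of a match therefore does not show that these genes lack a CArG box. The GC content of the windows ran from 58.7% to 70.7%, above the median of 52.7% over all windows, and its part in these counts was not tested. A match is a description of letters, not a site shown to be bound.

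Ier2 was the highest of the 10 genes, Dusp1 and Egr1 were intermediate. Ier2, a small nuclear protein of the immediate early response, had 63.8 TPM in pup 1 and 66.9 TPM in pup 2 (2692 and 3475 counts), which placed it above 81.0% and 82.9% of detected protein-coding genes. Its level was 22.4-fold and 22.1-fold that of Fos, the most even contrast of the 16 between the pups. The related Ier5 lay 9.68-fold and 7.32-fold below Ier2. Dusp1, the phosphatase that switches MAP kinases off again, had 23.4 TPM in pup 1 and 25.1 TPM in pup 2. Dusp6, a related MAP kinase phosphatase, was 2.39-fold and 2.24-fold higher than Dusp1, at 55.9 and 56.2 TPM.

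Egr1, a zinc finger activator induced by the same signals as Fos, had 16.1 TPM in pup 1 and 20.5 TPM in pup 2. Pup 1 lay below the median detected protein-coding gene of its library and pup 2 above it. Egr1 exceeded Fos 5.65-fold in pup 1 and 6.76-fold in pup 2. It made up 95.3% and 96.3% of the summed TPM of its family. Egr2 followed at 0.67 and 0.70 TPM, Egr3 at 0.10 and 0.08 TPM, and Egr4 at 0.02 and 0.01 TPM with 1 count in each pup.

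Of the 10 genes, 6 had a single annotated transcript in the tables and 4 had several. Only Dusp1 has transcripts annotated as retaining an intron, so no other gene of the set could show such a share. The retained-intron transcripts of Dusp1 held an estimated 9.50% of its TPM in pup 1 and 14.1% in pup 2, or 2.22 and 3.55 TPM. Unspliced RNA of the other genes was not measured. Its coding transcript held 90.5% and 85.9%. Of Egr1, the shorter coding transcript held 89.5% and 90.2%. The coding transcript of Fos held 95.7% and 96.0%, with the rest on non-coding fragments of under 3 counts each. By expected counts 1 coding transcript held all of Atf3 in both pups. The posterior means put 10.2 (SD 9.23) and 17.9 (SD 16.6) counts on another coding transcript of Atf3 in pups 1 and 2, so that split is not resolved. These splits come from the authors' model.

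The heat shock genes were present at levels near or above the median gene, far below their constitutive relatives Hspa8 and Dnaja1. By mean TPM Hspa1a ranked 8 of 14 measured HSP70 and HSP110 genes, and Dnajb1 ranked 7 of 17 DNAJA and DNAJB genes. Hspa1a, an HSP70 chaperone made on heat shock, had 19.4 TPM in pup 1 and 17.9 TPM in pup 2. Dnajb1, the J-domain protein that hands clients to it (HSP40), had 38.6 TPM in pup 1 and 32.1 TPM in pup 2. Dnajb1 thus stood 1.99-fold and 1.80-fold above Hspa1a. Hspa8, the HSP70 of unstressed cells, reached 1641 and 1545 TPM, or 84.7-fold and 86.5-fold the level of Hspa1a in pups 1 and 2. Dnaja1, a constitutive J-domain protein, was 9.16-fold and 10.2-fold higher than Dnajb1, at 353 and 328 TPM.

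Hspa1a has a near-identical neighbour, Hspa1b, which lies 9.95 kb away on chromosome 17, and reads can fit both. Of the 50-base windows of Hspa1a transcripts, 60.4% occurred in another gene, Hspa1b or Hspa1l. The promoters are shown because they too are nearly identical: the 150 bases before the start differ at 1 base, and 98.8% of 250 bases are identical. Both come from RefSeq on GRCm38.p6, minus strand, at chr17:34972157-34972306 for Hspa1a and chr17:34959239-34959388 for Hspa1b. Capitals mark GAANNTTC and CCAAT, the second read on the opposite strand as ATTGG.
Hspa1a: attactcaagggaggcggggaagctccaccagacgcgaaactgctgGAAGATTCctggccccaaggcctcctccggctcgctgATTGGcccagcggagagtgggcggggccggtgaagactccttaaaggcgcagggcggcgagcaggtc
Hspa1b: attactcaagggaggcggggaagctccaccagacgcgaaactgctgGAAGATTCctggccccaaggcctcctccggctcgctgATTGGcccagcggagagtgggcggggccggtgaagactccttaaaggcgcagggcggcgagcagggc

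The tables gave Hspa1a far more reads than Hspa1b, at 1.84 and 2.05 TPM for Hspa1b in pups 1 and 2. Hspa1a held 91.3% and 89.7% of their sum of 21.2 and 19.9 TPM. The authors' model put a posterior SD of 14.5 and 16.9 counts on the 1648 and 1869 counts of Hspa1a. For Hspa1b it put 12.8 and 14.7 counts on 148 and 203 counts. Taking both genes as 1, Hspa8 was still 77.4-fold and 77.6-fold higher. Hspa1l, the testis-type relative next to Hspa1a, had 0.45 and 0.58 TPM.

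**Figure D2:**
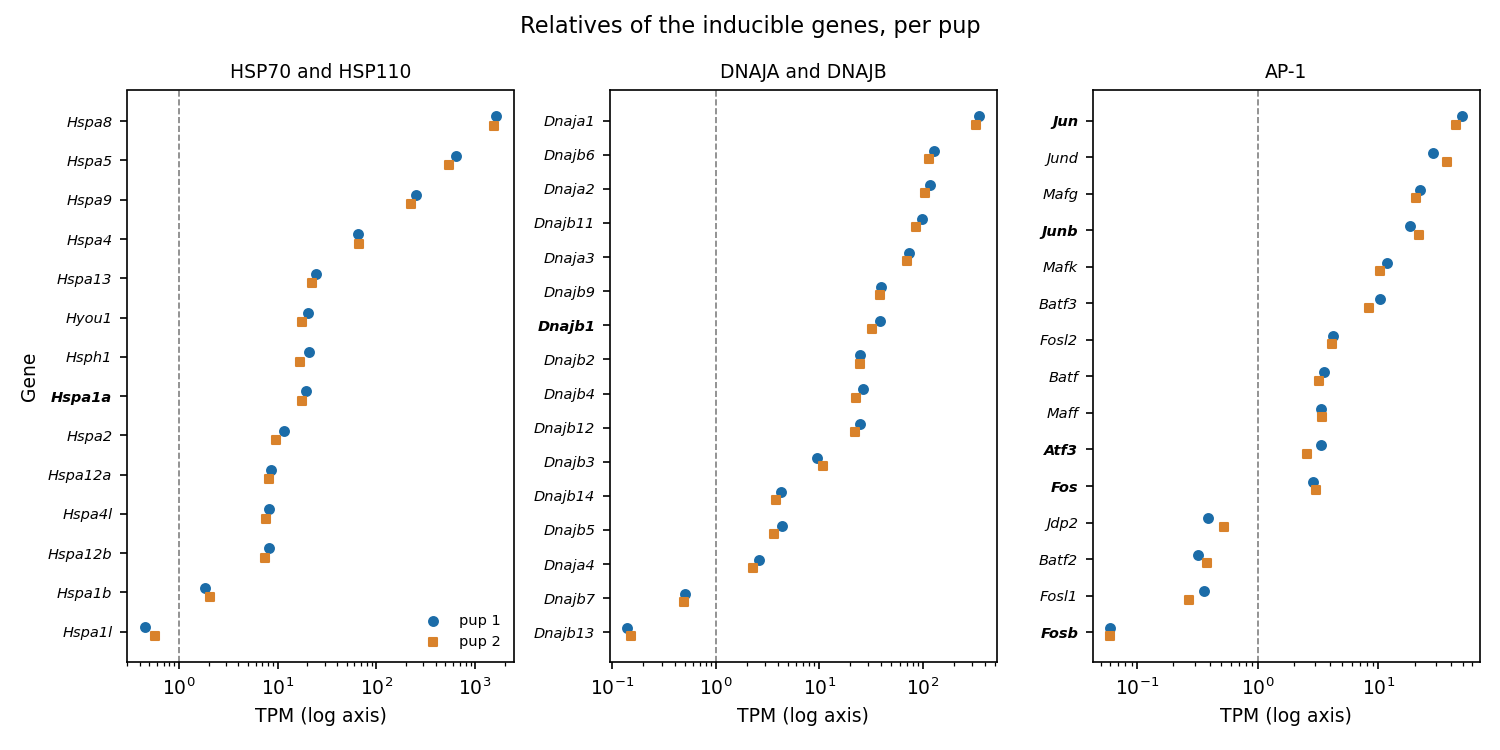
TPM (x axis, log scale) of measured relatives in 3 families, pup 1 as circles and pup 2 as squares; genes of the set of 10 are in bold and the dashed line is 1 TPM. Hspa8 at 1641 and 1545 TPM lies far right of Hspa1a, Dnaja1 right of Dnajb1, and Jun leads AP-1 while Fosb is last; Dnajb8, at 0 in both pups, is left out.

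Between the littermates none of the 9 genes with at least 50 counts in either pup differed by 2-fold, which 0.587% of the 15150 genes tested did. On TMM scaling none differed by 1.5-fold either, against 2.57% of genes. The counts gave a log2 ratio of pup 1 over pup 2, on TMM-scaled CPM plus 0.1 (counts scaled to the library total times its TMM factor). Egr1 had the largest, at -0.43 with a 95% counting interval of -0.53 to -0.34 (1476 counts in pup 1, 2300 in pup 2). Junb followed at -0.33 (-0.45 to -0.21; 949 and 1377 counts). Dusp1 (-0.17), Fos (-0.18) and Ier2 (-0.16) also had lower values in pup 1. Atf3 (0.28), Dnajb1 (0.17), Jun (0.08) and Hspa1a (0.02) had higher ones in pup 1. These signs are relative to the median gene: scaling to the ERCC spike-ins, of which 307 and 469 counts were found in pups 1 and 2, moves the median of all genes to 0.40 and turns Junb, Dusp1, Fos and Ier2 to 0.07, 0.23, 0.22 and 0.24, with Egr1 at -0.03. Under that scaling Atf3 (0.67) passes 1.5-fold, and Dnajb1 (0.58), Jun (0.485) and Hspa1a (0.43) also lie higher by about the shift of the median gene.

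The intervals of 6 of the 9 genes left out 0, as did those of 40.3% of all genes tested. The intervals of Atf3, Fos and Hspa1a did not. The median absolute log2 ratio was 0.17 for the 9 genes and 0.10 for all genes tested. With 1 library a side the intervals cover counting error only and give no replicate check. Single markers of cell types differed between the pups as well. The kidney list had a median log2 ratio of -0.04, with Slc34a1 of the proximal tubule at 0.41 (0.38 to 0.43) and Aqp2 of the collecting duct at -0.32 (-0.34 to -0.29). Lrp2, also of the proximal tubule, was at 0.01 (-0.02 to 0.04), so Slc34a1 does not stand for that segment. The leukocyte list had a median of -0.09, with the B cell gene Cd79a at -0.68 and the macrophage gene Cd68 at 0.28. In that list Csf1r was at 0.17 and Lyz2 at -0.09. The red blood cell list had a median of -0.01. Of the muscle, adrenal and liver list, with a median of 0.36 over 3 genes tested, the liver gene Alb was at 1.11 (5.65 TPM in pup 1, 2.42 TPM in pup 2), the muscle gene Acta1 at 0.36 and the more abundant liver gene Apoa2 at -0.08 (16.6 and 16.8 TPM). Their part in the differences of the 10 genes was not tested.

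**Figure D3:**
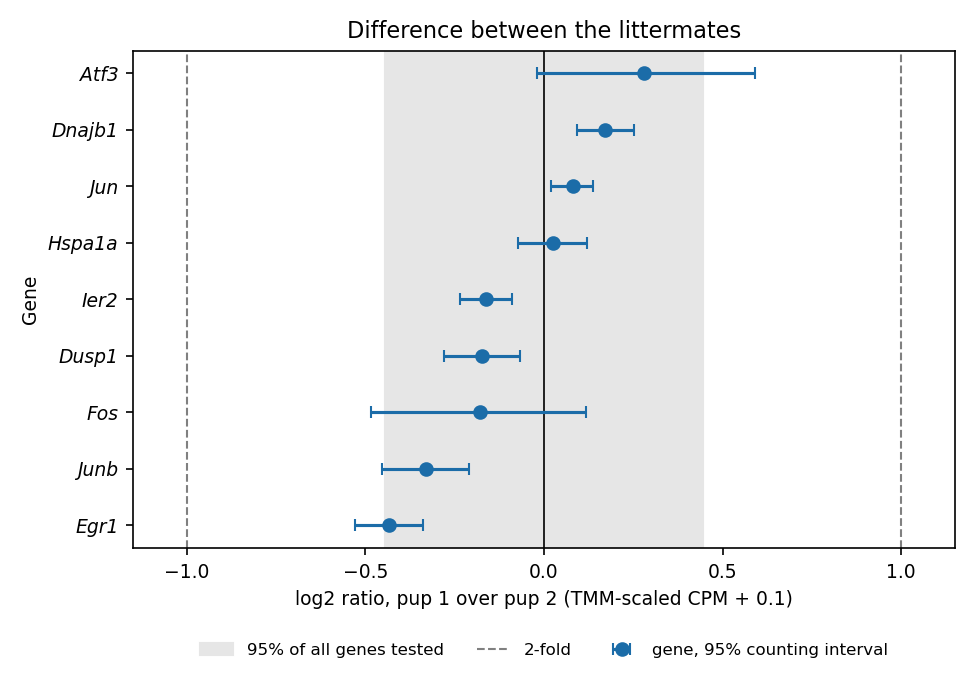
log2 ratio of pup 1 over pup 2 (x axis) for the 9 genes with enough counts; bars are 95% counting intervals, the grey band holds 95% of all genes tested and dashed lines mark 2-fold. Egr1 at -0.43 and Junb at -0.33 lie farthest left, Atf3 at 0.28 farthest right, and no interval reaches 2-fold.

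The wider pathways were described by 7 lists with 132 measured genes, 122 of them outside the set of 10. Of those 122 genes, 110 were detected. Among the 112 with enough counts 0 differed by 2-fold between the pups and 1 by 1.5-fold, against 0.587% and 2.57% of all genes tested. The 1 gene past 1.5-fold, named after its value was seen, was Csrnp1, a nuclear protein of the immediate early class. It had 3.74 TPM in pup 1 and 2.31 TPM in pup 2. Its scaled counts gave a ratio of 1.503, barely past the limit (log2 0.588, counting interval 0.348 to 0.849). In the AP-1 list 11 of 15 genes were detected at a median of 3.54 and 3.39 TPM in pups 1 and 2. After Jun and Jund came the small Maf protein Mafg, at 22.1 and 20.7 TPM.

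Other immediate early regulators were detected for 13 of 17 genes, with a median of 6.59 TPM in pup 1 and 7.65 TPM in pup 2. Ier3, an early response gene tied to cell survival, led at 68.9 and 74.4 TPM, followed by Ier2 and by Myc, the growth regulator, at 60.3 and 53.3 TPM. The effector and feedback list was detected for 28 of 28 genes at medians of 16.8 and 17.1 TPM. It was led by the mRNA decay factor Zfp36l1 (116 and 127 TPM), the kinase Sgk1 (116.95 and 119.89 TPM) and the matricellular protein Ccn1 (71.2 and 59.6 TPM). Ptgs2, the inducible cyclooxygenase, was lowest at 1.46 and 1.21 TPM.

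The upstream kinases and factors were all detected, 20 of 20, at medians of 17.6 TPM in pup 1 and 18.4 TPM in pup 2. Map2k2 and Map2k1, the kinases MEK2 and MEK1, had means of 132 ± 0.636 and 66.6 ± 2.14 TPM (SD, n = 2). The transcription factor Srf had 3.29 and 3.60 TPM, and the CREB kinase Rps6ka5 was lowest at 2.62 and 2.51 TPM.

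The chaperone lists stood near or above these levels, the HSP70 and HSP110 list above them in pup 1 and below them in pup 2. The HSP70 and HSP110 family was detected for 13 of 14 measured genes at medians of 19.9 TPM in pup 1 and 17.2 TPM in pup 2, led after Hspa8 by the endoplasmic reticulum chaperone Hspa5 (640 and 546 TPM) and the mitochondrial Hspa9 (252 and 223 TPM). J-domain genes were detected for 14 of 17 at medians of 25.0 and 22.9 TPM, with Dnajb6 at 129 and 115 TPM, Dnaja2 at 117 and 106 TPM, and Dnajb8 at 0 in both. Heat shock factors and other chaperones were detected for 20 of 21 at medians of 112 and 102 TPM, with Hsp90ab1 (1149 and 1032 TPM), Hsp90b1 (541 and 464 TPM) and Hspe1 (439 and 464 TPM) leading and the factor Hsf4 lowest at 0.06 and 0.10 TPM. Hsf1, the factor that induces Hspa1a and Dnajb1, had 27.6 TPM in pup 1 and 25.1 TPM in pup 2.

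The 10 genes are compact, a feature that their choice by name did not use. By the GENCODE M21 transcript with the longest coding sequence, Jun, Junb, Ier2 and Hspa1a have no intron, and the others have 1 to 3. Of 13199 detected protein-coding genes 2.88% have no intron, 21.8% have at most 3, and the median is 8. The median genomic span of the transcript was 3286.5 bases for the 10 genes and 22020.0 bases for detected genes. Transcript length differed less, with medians of 2537.5 and 2902.0 bases.

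**Figure D4:**
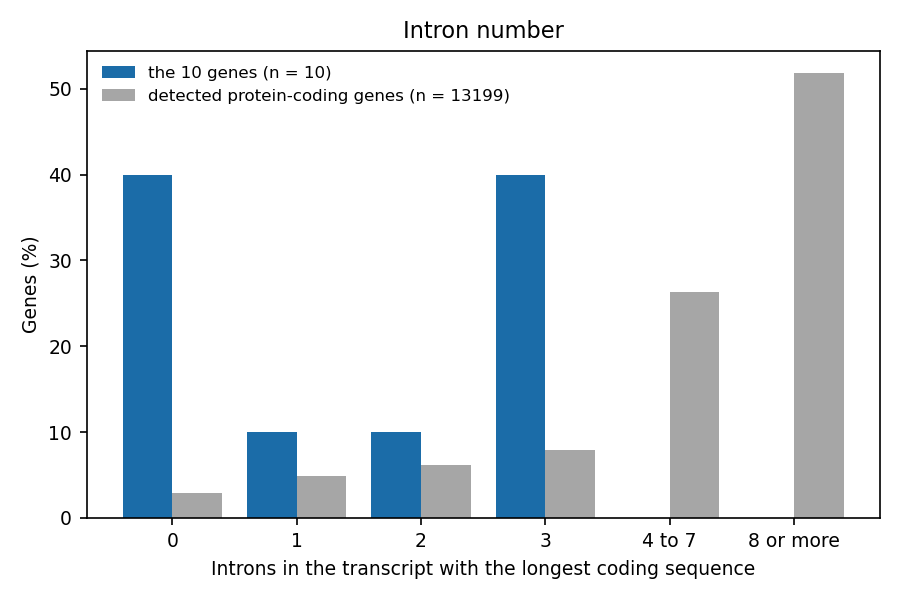
Share of genes (y axis, percent) by number of introns (x axis) for the 10 genes, left bars, and for 13199 detected protein-coding genes, right bars. Each of the 10 genes has 3 introns or fewer, against 21.8% of detected genes.

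The pentamer ATTTA, the core of AU-rich elements that speed mRNA decay, was counted in the 3′ UTRs. Fos, Dusp1 and Jun have 4 copies each, Atf3 has 3, Egr1 and Junb have 2, and Fosb has 1. Ier2, Hspa1a and Dnajb1 have none. At least 1 copy was present in 7 of the 10 genes, against 64.2% of detected genes, and at least 3 in 4 of the 10, against 33.3%. Per kilobase of 3′ UTR the medians were 2.09 copies for the 10 genes and 1.20 for detected genes.

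On the chromosomes of mm10 (GRCm38) 3 of the 10 genes share chromosome 8. Dnajb1 (ENSMUSG00000005483.9, 83608193 to 83612653), Ier2 (ENSMUSG00000053560.4, 84661331 to 84662852) and Junb (ENSMUSG00000052837.5, 84974484 to 84978718) lie in this order, with 1048.7 kb and 27 other protein-coding genes between Dnajb1 and Ier2, and 311.6 kb and 18 between Ier2 and Junb. Hspa1a (ENSMUSG00000091971.3) spans 34969190 to 34972156 on chromosome 17, where Dusp1 (ENSMUSG00000024190.6) also lies. Jun (ENSMUSG00000052684.4) spans 95049034 to 95052222 on chromosome 4 and Fos (ENSMUSG00000021250.9) 85473890 to 85477273 on chromosome 12. Fosb (ENSMUSG00000003545.2) spans 19302696 to 19310051 on chromosome 7, Atf3 (ENSMUSG00000026628.9) 191170296 to 191218039 on chromosome 1, and Egr1 (ENSMUSG00000038418.7) 34859823 to 34864984 on chromosome 18.

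Several of these genes overlap a gene of the opposite strand, and whether reads were counted by strand is not given in the sources used here. Reads may therefore belong to either gene where the transcripts themselves share sequence on opposite strands. Of the Jun transcript windows, cut as for Hspa1a above, 5.83% occurred in Junos on the opposite strand. The share was 5.76% for Junb (Prdx2) and 24.1% for Hspa1a (Gm20481 or Gm10501). For Dusp1 no transcript window occurred in another gene on either strand, so its overlap below is one of gene spans. Hspa1a overlaps 2225 bases of Gm20481, which is at 0 TPM in both pups. Junb overlaps 351 bases of Prdx2, a peroxidase gene at 609 TPM in pup 1 and 575 TPM in pup 2. Jun overlaps 689 bases of the antisense gene Junos (2.39 and 2.22 TPM). Dusp1, whose M21 span reaches far upstream of its expressed transcripts, overlaps 640 bases of Ergic1 (73.7 and 76.4 TPM). The authors' posterior SD was 0 counts for Junb and Dusp1 and 2.14 and 2.99 counts for Jun in pups 1 and 2.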

How the data were processed

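Total RNA-seq libraries of 2 pups were analysed as 1 group. The authors deposited gene and transcript tables per library. Per the file headers these give expected counts (estimated, not normalized), TPM, FPKM, posterior mean versions, interval bounds of TPM and, for transcripts, the percent of a gene's TPM; the deposited FPKM served as an alternative only. The deposited signal bounds of TPM, an interval of unstated level, were read but not printed. The text deposited with each library names mm10 and GENCODE M4; aligner and counting strand are not given there or in the labels.

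Symbols came from GENCODE M21 on GRCm38 by Ensembl identifier without version, which named 42462 of 43346 genes; 4 older symbols were matched through RefSeq synonyms and Hspa14 had no value. The other 26345 features (spike-ins, short RNAs, phiX) held 0.00077% and 0.00098% of counts and stayed out of scaling. Expected counts were rounded for scaling and intervals. Pup ratios used TMM factors of edgeR 4.0.16 in R 4.3.3, computed over Ensembl genes with any count, and genes with at least 50 counts in either pup, called at 2-fold; DESeq2 1.42.0 gave alternative size factors. Ratios of TMM-scaled values carry an added 0.1 CPM. Intervals are exact Poisson or binomial at 95% and cover counting error only. Separately from these intervals, a floor of 3 counts was set for a count of 0, or 0.0721 and 0.0614 CPM in pups 1 and 2. Contrasts between genes used log2(TPM + 1). The ratio step was tested on simulated data. With 1 group and 2 littermates no test across samples exists and no p-value is given; variation between litters was not measured.

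Named were the 10 genes, the highest 3 and the lowest of each list, and the genes of the 16 contrasts; Egr2, Egr3, Hsf1, Srf, Csrnp1, the single markers and the overlapping genes were added after their values were seen. One gene that this rule names is not reported here. The 10 genes and the lists were chosen with earlier results of these data known. Other steps ran in Python 3.11.15 (SciPy 1.17.1, pandas 2.3.3). Proteins were not analysed here.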

Additional observations from a re-analysis of the deposited data

How the results depend on the processing

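No paired analysis was possible because the labels give 1 group. The number of genes detected stayed at 9 with posterior mean TPM, at 0.5 TPM and in each pup alone, and was 7 at 5 TPM. The median level was 19.975 TPM, or 18.9 to 21.1 TPM with 1 pup left out, 19.6 with posterior mean TPM and 20.5 without Fosb; TPM rescaled over protein-coding genes without mitochondrial genes gave 25.2, since the total is smaller by construction. No gene of the 10 passed 2-fold between the pups under any of the 8 alternatives of scaling, prior, filter and fold, the last with a limit of 1.5-fold on TMM scaling; on ERCC scaling Atf3 (0.67 on the log2 scale) passes 1.5-fold. Of 16 contrasts, 14 passed the spread limit, 13 with log2(TPM + 0.1), where the limit rose to 0.60 and Hspa8 over Hsp90ab1, unchanged at 0.55, no longer passed it, and 14 to 15 with 1 pup left out, where Jun over Jund (0.78) passed in pup 1 alone. Rescaling over protein-coding genes raised Fos to a mean of 3.72 TPM and Fosb to 0.076 TPM; posterior mean TPM gave 3.35 and 0.065 TPM, which puts Fos above Atf3 (3.12). Of the values of single genes and contrasts 154 kept their call or stayed within the spread and 24 moved by more. A further 1 became stronger (Jun over Jund) and 1 weaker (Hspa8 over Hsp90ab1). Among called contrasts 0 changed sign. The pup ratios, none of them called, did change sign on ERCC scaling for Fos, Fosb, Dusp1, Junb and Ier2. With 6 and 8 counts, the level of Fosb is limited by depth.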
